A study of Mus musculus with 6 samples.

Results

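The mesothelium is the thin epithelial sheet, of mesodermal origin, that covers the organs of the body cavities, the embryonic pancreas among them. The 6 genes described here, Wt1, Upk3b, Upk1b, Msln, Lrrn4 and Gpm6a, are markers of that sheet. They were taken by name from the deposited table of gene counts, whose identifiers were mapped to symbols, and all 6 of 6 were found among its 49671 genes. Wt1 codes for a nuclear zinc finger transcription factor and the other members code for proteins of the cell membrane. In mouse embryos Wt1 marks mesothelium of most coelomic organs, and mesothelial cells can leave the sheet and add mesenchymal cells to the organ beneath it. Uroplakins such as Upk3b and Upk1b are best known from the apical plaques of the bladder lining, and mesothelin, the product of Msln, is a surface glycoprotein that binds the mucin Muc16.

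RNA came from pancreata of C57BL/6J mouse embryos at 14.5 dpc. Of the 6 samples, 3 were treated with AMI-5 at 10 µM and 3 were controls, with 1 library each. AMI-5 inhibits protein methyltransferases, and the study asked how the compound affects differentiation of this organ. No transgene or other genotype is named in the labels, the sex of the embryos and the number pooled per sample are not given there, and for culture and treatment they point to publications not used here. The libraries held 22894312 to 24805188 counts with AMI-5 and 12445425 to 13321899 counts in controls. Per the labels, samples marked A were made with Ultra I and the rest with Ultra II, versions of 1 stranded library kit. Am is the mark in AMI-5 titles and A that in control titles, so that, taken as written, kit and treatment cannot be told apart. The labels do not say whether the samples are separate animals or cultures, so a p-value here stands for spread among these samples alone, and that spread may be technical.

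All 6 members passed the filter on low counts and entered a test over 17519 genes (edgeR quasi-likelihood test, two-sided, Benjamini-Hochberg adjusted p under 0.05). Gpm6a and Msln were higher with AMI-5, none was lower, and Wt1, Upk3b, Upk1b and Lrrn4 did not pass. Over all genes tested, 54.1% passed, 27.5% as higher and 26.6% as lower, so that 2 higher of 6 is near the share of higher genes in the whole table. The median log2 fold change (AMI-5 over control) was 0.22 over the 6 members and -0.0013 over all genes tested. Levels are given as CPM, a gene's counts scaled to a common library total after adjustment by edgeR's TMM factors, and in bulk tissue fewer mesothelial cells cannot be told apart from less of an RNA per cell.

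**Figure D1:**
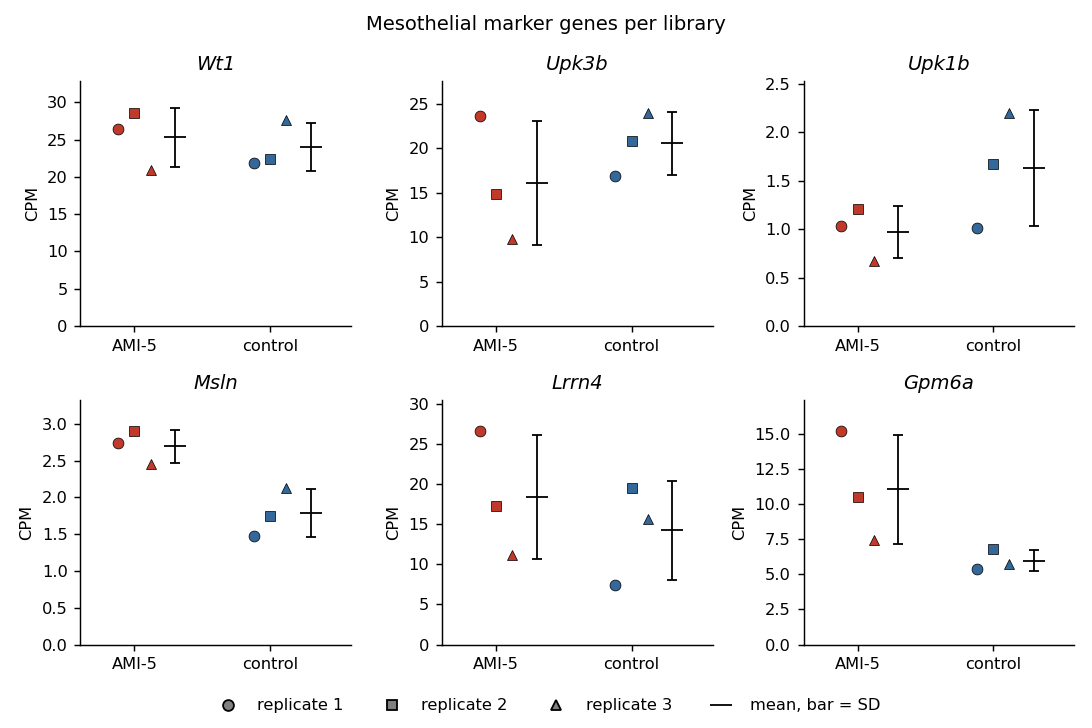
CPM of each member (y axis, from 0) in the 3 AMI-5 and the 3 control libraries; symbols give the replicate number, and the bar beside each group is the mean with its SD. The groups are apart for Msln and Gpm6a and overlap for the other 4 genes.

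Upstream sequence was matched by symbol for 3 of the 6 members, Upk3b, Lrrn4 and Gpm6a, and is shown for these. Their level fell from AMI-5 replicate 1 to 2 to 3, while Wt1, Upk1b and Msln shared the order 2, 1, 3. A link between these sequences and the levels was not tested. No upstream sequence was at hand for Wt1, Upk1b and Msln, so motifs cannot be compared with that order. Each window runs from 250 bases before to 50 bases after a transcript start (RefSeq, GRCm38.p6), and for Gpm6a there are 2 starts. Capitals mark matches, on either strand, to GGAATG, the core of the motif of TEAD factors, or to TATAAA, the TATA box.
Upk3b (chr5:136038246-136038545, plus strand): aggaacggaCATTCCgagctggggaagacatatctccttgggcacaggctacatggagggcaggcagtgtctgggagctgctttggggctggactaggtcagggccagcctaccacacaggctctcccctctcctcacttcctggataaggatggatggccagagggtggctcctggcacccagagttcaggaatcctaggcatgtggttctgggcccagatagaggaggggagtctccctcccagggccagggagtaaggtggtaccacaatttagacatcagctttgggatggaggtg
Lrrn4 (chr2:132880813-132881112, minus strand): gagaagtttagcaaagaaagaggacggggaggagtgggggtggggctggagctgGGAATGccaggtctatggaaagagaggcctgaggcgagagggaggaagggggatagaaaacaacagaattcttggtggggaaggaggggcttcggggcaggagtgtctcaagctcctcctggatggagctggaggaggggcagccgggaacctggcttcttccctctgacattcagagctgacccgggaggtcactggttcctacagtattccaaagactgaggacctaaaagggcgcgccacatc
Gpm6a, upstream start (chr8:54779184-54779483, plus strand): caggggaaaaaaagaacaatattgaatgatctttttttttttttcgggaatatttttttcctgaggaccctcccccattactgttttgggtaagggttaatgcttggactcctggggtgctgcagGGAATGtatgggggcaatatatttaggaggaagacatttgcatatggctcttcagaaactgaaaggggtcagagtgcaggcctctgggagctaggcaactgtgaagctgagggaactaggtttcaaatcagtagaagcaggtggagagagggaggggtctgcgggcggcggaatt
Gpm6a, downstream start (chr8:54954478-54954777, plus strand): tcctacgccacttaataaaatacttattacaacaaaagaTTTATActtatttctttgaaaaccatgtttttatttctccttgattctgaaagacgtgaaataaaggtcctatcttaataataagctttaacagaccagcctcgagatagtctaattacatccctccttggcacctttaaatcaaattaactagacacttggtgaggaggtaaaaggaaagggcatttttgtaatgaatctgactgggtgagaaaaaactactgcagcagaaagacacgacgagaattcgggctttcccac
GGAATG or its reverse complement lies in the windows of Upk3b (at -241 from the start, reverse strand), of Lrrn4 (at -196) and of the upstream Gpm6a start (at -125). Both Gpm6a windows end before the gene as counted here (54954843 to 55060871). The upstream window ends at 54779483, and the downstream window, which holds no GGAATG, at 54954777. Of 32817 windows in the same table, 14.7% hold it. TATAAA is found at -211 of the downstream Gpm6a start, on the reverse strand, and in 13.6% of all windows. GTGGGAG, the core of the motif that WT1 binds, is in none of the 4 windows and in 9.73% of all windows. None of the 3 motifs overlaps another here, and a match is a run of letters, not a binding site. The windows of Upk3b and Lrrn4 hold 58.7% and 58% G and C, and those of Gpm6a hold 47% at the upstream and 36% at the downstream start.

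Wt1, the transcription factor of the group (ENSMUSG00000016458, chromosome 2, 105126529 to 105173616, plus strand, mm10), had 26.4, 28.6 and 20.9 CPM in the AMI-5 libraries and 21.9, 22.4 and 27.7 CPM in the control libraries. The groups overlapped over their whole range, with 25.3 ± 3.96 CPM with AMI-5 and 24.0 ± 3.21 CPM in controls (SD, n = 3 each). The log2 fold change was 0.076 (SE 0.13, adjusted p = 0.648), and no setting gave it a call. Scaled by library totals alone it was -0.018. Wt1os, the noncoding transcript that starts beside Wt1 on the opposite strand, had 1.59 ± 0.415 CPM with AMI-5 and 1.33 ± 0.343 CPM in controls (adjusted p = 0.495). The merged exons of Wt1 and Wt1os do not overlap in the table.

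Upk3b, a uroplakin that in mouse is used as a mesothelial marker (ENSMUSG00000042985, chromosome 5, 136038496 to 136046487, plus strand, mm10), had 23.6, 14.8 and 9.80 CPM in AMI-5 replicates 1, 2 and 3. The control libraries had 16.9, 20.8 and 23.9 CPM, so that AMI-5 replicate 1 lay among the controls and the other AMI-5 libraries below them. The log2 fold change was -0.36 (SE 0.36, adjusted p = 0.459). Without AMI-5 replicate 1 it was -0.73 and past the threshold (adjusted p = 0.0224), so that 1 library decides whether Upk3b is called. Its spread was larger with AMI-5, at 43.3% of the mean against 17.2% in controls.

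Upk1b, a tetraspanin that pairs with type III uroplakins in the bladder (ENSMUSG00000049436, chromosome 16, 38773184 to 38800203, minus strand, mm10), was the lowest member by reads, with 23, 27 and 16 reads in AMI-5 libraries and 13, 23 and 29 reads in control libraries. In CPM these were 1.03, 1.20 and 0.676 with AMI-5 and 1.01, 1.68 and 2.20 in controls. Control replicate 1 lay within the AMI-5 range, and the other controls above it. The log2 fold change was -0.75 (SE 0.33, adjusted p = 0.0747). It passed without control replicate 1 (-0.9981, adjusted p = 0.0250) and once GC and length trends had been taken out (-0.9223, adjusted p = 0.0354), and was -0.4783 without control replicate 3 (adjusted p = 0.299). At 13 reads counting error alone is 27.7%.

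Msln, the mesothelin gene (ENSMUSG00000063011, chromosome 17, 25748614 to 25754327, minus strand, mm10), had 2.74, 2.90 and 2.45 CPM with AMI-5 and 1.47, 1.75 and 2.12 CPM in controls. Every AMI-5 library was above every control library; over all genes tested, the groups did not overlap in 61.9%. The means were 2.69 ± 0.226 CPM with AMI-5 and 1.78 ± 0.326 CPM in controls (SD, n = 3 each). Its log2 fold change was 0.59 (SE 0.22, adjusted p = 0.0360), a 1.51-fold difference. These values rest on 61, 65 and 58 reads with AMI-5 and on 19, 24 and 28 reads in controls. The call was kept in 8 of 17 alternatives and lost in the others, with log2 fold changes of 0.47 to 0.73 and adjusted p of 0.0156 to 0.14 over all of them. It ended when AMI-5 libraries were thinned to control depth (0.59, adjusted p = 0.0625), without control replicate 1 (0.47) or 2 (0.575) and without AMI-5 replicate 1 (0.59) or 2 (0.56). Muc16, the mucin partner of mesothelin, had 2.15 ± 0.829 CPM with AMI-5 and 2.40 ± 0.694 CPM in controls (log2 fold change -0.16, adjusted p = 0.690).

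Lrrn4, a membrane protein with leucine-rich repeats (ENSMUSG00000043110, chromosome 2, 132868305 to 132880891, minus strand, mm10), had 26.6, 17.3 and 11.2 CPM in AMI-5 replicates 1, 2 and 3 and 7.44, 19.6 and 15.7 CPM in control replicates 1, 2 and 3. The highest library of all 6 was AMI-5 replicate 1 and the lowest was control replicate 1, while the other AMI-5 and control libraries overlapped. The log2 fold change was 0.36 with an SE of 0.51 (adjusted p = 0.590). It was 0.0081 without AMI-5 replicate 1 and 0.053 without control replicate 1, and stayed above 0 in 17 of 17 alternatives. Without both of these libraries, a subset chosen after seeing the data, it was -0.31.

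Gpm6a, a proteolipid of the cell membrane that is also abundant in neurons (ENSMUSG00000031517, chromosome 8, 54954843 to 55060871, plus strand, mm10), had the largest difference of the members. It had 15.2, 10.5 and 7.48 CPM with AMI-5 and 5.35, 6.78 and 5.76 CPM in controls, and the groups did not overlap. The means were 11.04 ± 3.88 CPM with AMI-5 and 5.96 ± 0.736 CPM in controls (SD, n = 3 each). Its log2 fold change was 0.88 (SE 0.25, adjusted p = 0.0182), a 1.85-fold difference. Without AMI-5 replicate 1, its highest library, the log2 fold change was 0.60 (adjusted p = 0.0204). The call ended without control replicate 1 (0.81, adjusted p = 0.0811) or control replicate 3 (0.86, adjusted p = 0.0823). It also ended once GC and length trends had been taken out, at 0.36 (adjusted p = 0.277). Gpm6a transcripts hold 39.0% G and C, against 47.9% to 55.5% for the other members, and the trend fitted over protein-coding genes gave a gene of its GC content and length a log2 difference of 0.52 between AMI-5 and control libraries. For the other 5 members that trend was between -0.17 and 0.17.

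Gpm6a is known from neurons, which a whole pancreas also holds. Of 9 genes listed for them, 2 were higher and 4 lower with AMI-5, and their summed level was 125 to 143 CPM with AMI-5 and 150 to 170 CPM in controls, without overlap. The neuronal tubulin Tubb3 was lower (log2 fold change -0.64, adjusted p = 0.000142). None of the 9 genes was near 0, and their part in the level of Gpm6a was not tested. Gpm6b, the closest relative of Gpm6a, had 56.4 ± 3.79 CPM with AMI-5 and 52.0 ± 2.66 CPM in controls (log2 fold change 0.12, adjusted p = 0.168), and was past the threshold as lower once GC and length trends had been taken out (-0.19, adjusted p = 0.0299).

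Within each group the 6 members shared their lowest library. AMI-5 replicate 3 was the lowest AMI-5 library for 6 of 6 members, and control replicate 1 was the lowest control library for 6 of 6. Over all 17519 genes tested, AMI-5 replicate 3 was lowest in 31.8% and control replicate 1 in 33.3%. Among 19 other mesothelium genes tested, the same libraries were lowest for 12 and 10. Upk3b, Lrrn4 and Gpm6a were all highest in AMI-5 replicate 1, and their highest AMI-5 library was 2.40, 2.37 and 2.03 times the lowest. For Wt1 and Msln that ratio was 1.37 and 1.18. Summed over the members, the level was 95.5, 75.3 and 52.5 CPM in AMI-5 replicates 1, 2 and 3 and 54.0, 72.9 and 77.4 CPM in control replicates 1, 2 and 3, so that the groups overlapped. The 21 further mesothelium genes summed to 1735, 1624 and 1676 CPM in AMI-5 replicates 1, 2 and 3. In control replicates 1, 2 and 3 the sums were 1860, 1753 and 1752 CPM, so that control replicate 1 was highest. Most of that sum came from keratins, with Krt8 at 608, Krt18 at 561, Krt7 at 202 and Krt19 at 145 CPM in control replicate 1. Each of these keratins was higher in control replicate 1 than in the other control libraries.

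**Figure D2:**
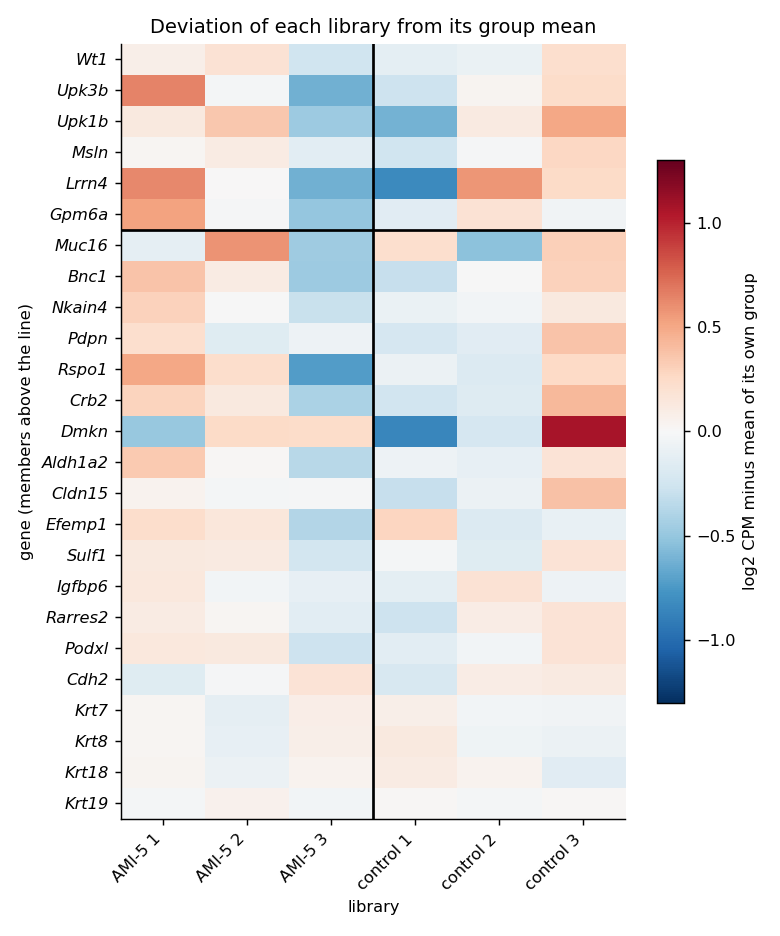
Log2 CPM of each tested mesothelium gene minus the mean of its own group (colour), for the 3 AMI-5 and 3 control libraries (columns); the 6 members are above the horizontal line and 19 other mesothelium genes below it. AMI-5 replicate 3 and control replicate 1 are the lowest of their groups for all 6 members.

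Levels were compared between genes per kb of merged exons. With AMI-5 the order was Lrrn4 (4.95 ± 2.08 CPM per kb), Upk3b (4.55 ± 1.97), Wt1 (4.08 ± 0.640), Gpm6a (3.43 ± 1.21), Msln (1.27 ± 0.107) and Upk1b (0.548 ± 0.152, SD, n = 3 each). In controls it was Upk3b (5.82 ± 1.001 CPM per kb), Wt1 (3.87 ± 0.519), Lrrn4 (3.83 ± 1.67), Gpm6a (1.85 ± 0.229), Upk1b (0.920 ± 0.337) and Msln (0.843 ± 0.154). With AMI-5 the ranges of mean ± SD of the first 4 genes overlapped, although Lrrn4 was above Upk3b and Upk3b above Gpm6a in every AMI-5 library, and Msln stood above Upk1b in every AMI-5 library. In controls Upk3b stood above Wt1 in every library, while Wt1 and Lrrn4, and likewise Upk1b and Msln, lay within each other's spread.

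Each member was also set against Wt1 in the same library, per kb. Gpm6a was at 111%, 70.6% and 69.0% of Wt1 with AMI-5 and at 47.1%, 58.4% and 40.1% in controls, and Msln was at 30.4%, 29.7% and 34.4% with AMI-5 and at 19.7%, 22.9% and 22.5% in controls. Upk1b was lower relative to Wt1 with AMI-5, with 13.7%, 14.8% and 11.3% of Wt1 with AMI-5 and 16.1%, 26.2% and 27.8% in controls. These 3 ratios did not overlap between the groups (exact two-sided permutation test, p = 0.1 for each, the smallest that 3 against 3 allows). Over 16773 other tested genes with reads in every library, the ratio to Wt1 did not overlap between the groups in 32.8%. The ratios of Upk3b (exact p = 0.3) and of Lrrn4 (exact p = 0.5) to Wt1 overlapped. GC and length trends were not removed from these ratios. The fitted trend (log2, AMI-5 minus control) was 0.52 for Gpm6a and -0.17 for Wt1, in the direction of their ratio. It was -0.13 for Msln, near that of Wt1, and 0.17 for Upk1b, opposite to the direction of its ratio. The part of the trend in the ratios was not tested.

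**Figure D3:**
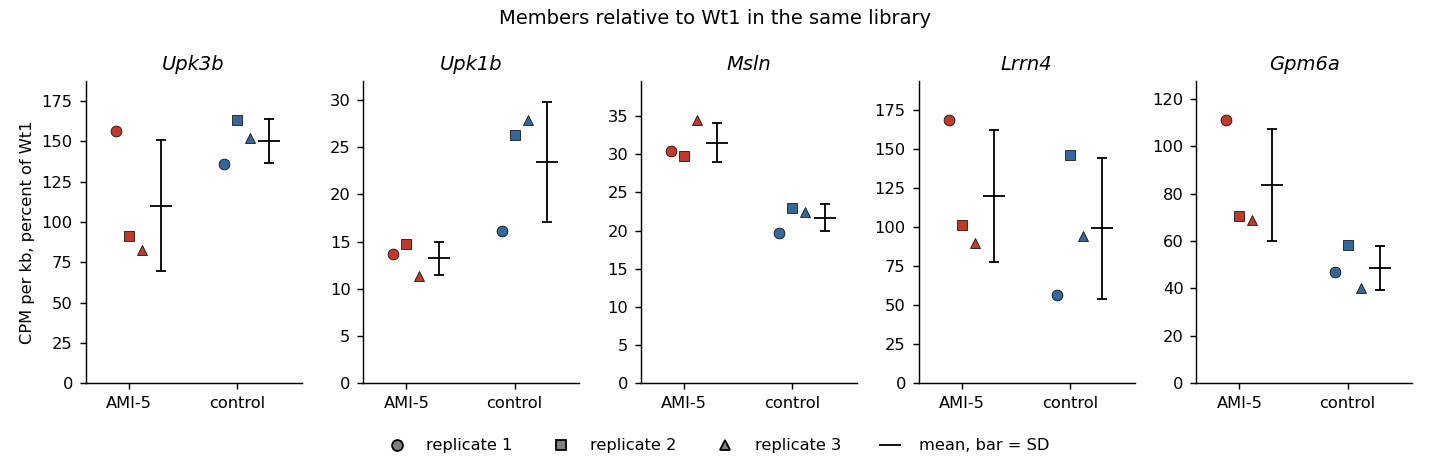
Level of 5 members per kb as a percent of Wt1 in the same library (y axis, from 0), for AMI-5 and control libraries; symbols give the replicate number and the bar is mean with SD. AMI-5 lies above control for Msln and Gpm6a, below it for Upk1b, and overlaps it for Upk3b and Lrrn4.

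Of all 15 pairs of members, 9 had ratios that did not overlap between the groups, each with an exact permutation p of 0.1 (0.167 adjusted over the 15 pairs). Over all pairs of tested genes with reads in every library the ratios did not overlap in 59.2%, so that the share among the members is near that of other genes. The ratio of Upk3b to Lrrn4 was 0.932, 0.901 and 0.918 with AMI-5 and 2.39, 1.12 and 1.61 in controls (per kb). Upk3b was thus below Lrrn4 in each AMI-5 library and above it in each control library. The ratio of Upk3b to Gpm6a was 1.41, 1.29 and 1.19 with AMI-5 and 2.88, 2.79 and 3.79 in controls. This ratio keeps the GC and length trends, which were -0.11 for Upk3b and 0.52 for Gpm6a (log2, AMI-5 minus control). Upk3b, Lrrn4 and Gpm6a differed between AMI-5 libraries by more than their ratios did.

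Of 21 further genes listed for mesothelium, 19 could be tested. With AMI-5 4 of these 19 were higher and 5 lower, against 27.5% and 26.6% of all genes tested. The median log2 fold change of the 19 genes was -0.064. Calb2, the calcium-binding protein calretinin, held 0 to 3 reads a library, and the transcription factor Tbx18 was also too low to test. Krt8, Krt18 and Krt19 are also on the list for pancreatic epithelium, and Krt7 is known from ducts too. Efemp1, a fibulin of the extracellular matrix, had 20.8 ± 4.45 CPM with AMI-5 and 4.51 ± 0.801 CPM in controls. Its log2 fold change was 2.21 (SE 0.19, adjusted p = 5.73e-06), and the groups did not overlap. The claudin Cldn15, a pore-forming tight junction protein, had 6.51 ± 0.195 CPM with AMI-5 and 3.21 ± 0.792 CPM in controls (log2 fold change 1.02, adjusted p = 0.000588). Igfbp6, which binds insulin-like growth factors, had 5.64 ± 0.496 CPM with AMI-5 and 3.91 ± 0.471 CPM in controls (0.53, adjusted p = 0.0172). The call of Igfbp6 ended in DESeq2 (adjusted p = 0.0506) and without control replicate 1 (0.0588) or AMI-5 replicate 1 (0.0608). The keratin Krt18 was higher by 0.21 (adjusted p = 0.0267), and its call ended with library totals alone (0.11, adjusted p = 0.137) and without control replicate 2 or 3 or AMI-5 replicate 1 or 3 (adjusted p of 0.0531, 0.104, 0.0571 and 0.0599).

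Among the lower genes, Nkain4, a membrane protein that interacts with the sodium pump, had 7.63 ± 1.54 CPM with AMI-5 and 14.9 ± 1.18 CPM in controls. Its log2 fold change was -0.97 (SE 0.15, adjusted p = 0.000149). Crb2, an apical polarity protein, had 8.67 ± 2.06 CPM with AMI-5 and 14.6 ± 3.91 CPM in controls (-0.75, adjusted p = 0.0255), and lost its call once GC and length trends had been taken out (-0.30), under the replicate block (adjusted p = 0.0951) and without AMI-5 replicate 2 (0.0712). The sulfatase Sulf1, which trims heparan sulfate, was at -0.49 and lost its call under the block (adjusted p = 0.0575). Krt7 was at -0.51 and kept its call in each alternative, with -0.30 once GC and length trends had been taken out. Krt8 was at -0.27 and lost its call once GC and length trends had been taken out (-0.11, adjusted p = 0.195) and without AMI-5 replicate 2 (-0.19, adjusted p = 0.0547). Podxl, a sialomucin of apical surfaces that is also found on endothelium, had 82.3 ± 12.4 CPM with AMI-5 and 103 ± 11.5 CPM in controls and missed the threshold (-0.32, adjusted p = 0.0592). Podxl was past it as lower with library totals alone (adjusted p = 0.0426), with no filter (6.61e-05), in DESeq2 (0.0209), in limma voom (0.0393) and with AMI-5 libraries thinned (0.0476). Krt19 was at 145 ± 4.79 CPM with AMI-5 and 143 ± 2.56 CPM in controls (adjusted p = 0.717), but passed as higher once GC and length trends had been taken out (0.18, adjusted p = 0.0111).

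**Figure D4:**
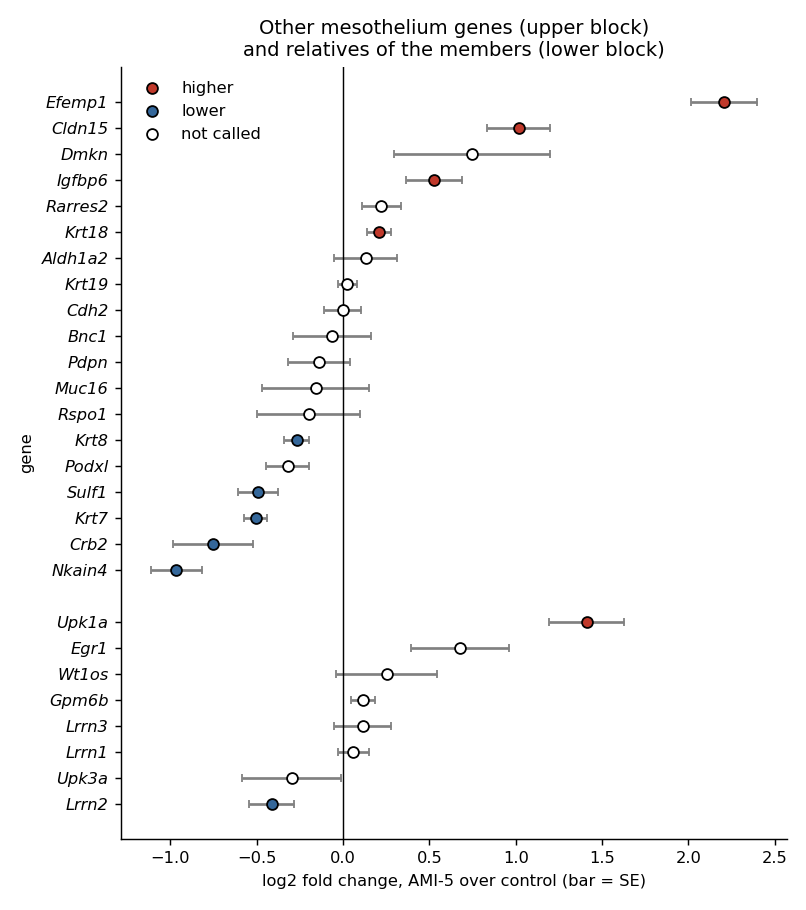
Log2 fold change, AMI-5 over control, with its SE (x axis) for 19 further mesothelium genes (upper block) and 8 relatives of the members (lower block). Filled points passed the test; Efemp1 is the highest and Nkain4 the lowest of the upper block.

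Of 12 genes related to the members by family or position, 9 were tested, 2 were higher and 1 lower. Over all genes tested, 27.5% were higher and 26.6% lower. Upk1a, the uroplakin tetraspanin most like Upk1b, had 4.15 ± 0.408 CPM with AMI-5 and 1.55 ± 0.341 CPM in controls. Its log2 fold change was 1.41 (SE 0.22, adjusted p = 0.000170), opposite in sign to Upk1b. Lrrn2, a relative of Lrrn4, had 10.2 ± 0.335 CPM with AMI-5 and 13.6 ± 2.46 CPM in controls (-0.41, adjusted p = 0.0176). With GC and length trends taken out Lrrn2 was at 0.045 (adjusted p = 0.789), and its call also ended with AMI-5 libraries thinned (0.0890) and without control replicate 3 (0.0892) or AMI-5 replicate 2 (0.0592). Egr1, an immediate early factor whose zinc fingers resemble those of Wt1, had 241 ± 70.3 CPM with AMI-5 and 151 ± 25.4 CPM in controls (adjusted p = 0.111), and was past the threshold as higher in DESeq2 (adjusted p = 0.0327), in limma voom (0.0262), under the block (0.000256) and without AMI-5 replicate 3 (0.00219). Upk2, Upk3bl and Mslnl were below 0.5 CPM on average and were not tested.

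In their profile over the 6 libraries (root mean square distance of log2 CPM, each gene centred on its own mean), the genes near to Wt1 included Sorcs1 (0.056) and Ildr2 (0.066). The genes nearest to Msln were Cd55 (0.039), Nova1 (0.052) and Lca5 (0.069). For Gpm6a they were Cxcl13 (0.18), Gria2 (0.20) and Selenbp1 (0.21), and for Upk3b Clec11a (0.15), Podn (0.15) and Rspo1 (0.19), of which Rspo1, a secreted activator of Wnt signalling, is on the mesothelium list. Crb2, also on that list, was among the genes nearest to Upk1b (0.22), after Rapgef3 (0.20). Lrrn4 had no gene closer than Pyroxd2 (0.32), followed by Slc25a40 (0.37) and Rps18 (0.37). The search covered 11725 protein-coding genes with a mean of at least 5 CPM.

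Markers of other cell types were measured in the same libraries. The counts below stand beside 27.5% higher and 26.6% lower over all genes tested. Pancreatic epithelium genes (2 higher and 6 lower of 10) summed to 4194 to 4621 CPM with AMI-5 and 4364 to 4781 CPM in controls, and mesenchyme genes (3 higher and 6 lower of 12) to 9259 to 10642 CPM with AMI-5 and 9655 to 10113 CPM in controls. Endocrine genes had 1 higher and 2 lower of 8, and endothelial genes 0 higher and 1 lower of 6. Smooth muscle and spleen primordium genes had 0 higher and 3 lower of 5 each. Of 5 leukocyte genes 3 were higher, with sums of 185 to 219 CPM with AMI-5 and 131 to 158 CPM in controls, and erythroid genes had 3 higher and 1 lower of 4 tested, with sums of 44.0 to 125 CPM with AMI-5 and 8.45 to 26.5 CPM in controls. For urothelium, the other home of uroplakins, Upk2 and Krt5 were below 0.5 CPM and the 5 listed genes summed to 5.83 to 5.97 CPM with AMI-5 and 6.06 to 8.82 CPM in controls, with 1 higher and 1 lower of 3 tested. The part of these cell types in the levels of the members was not tested.

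**Figure D5:**
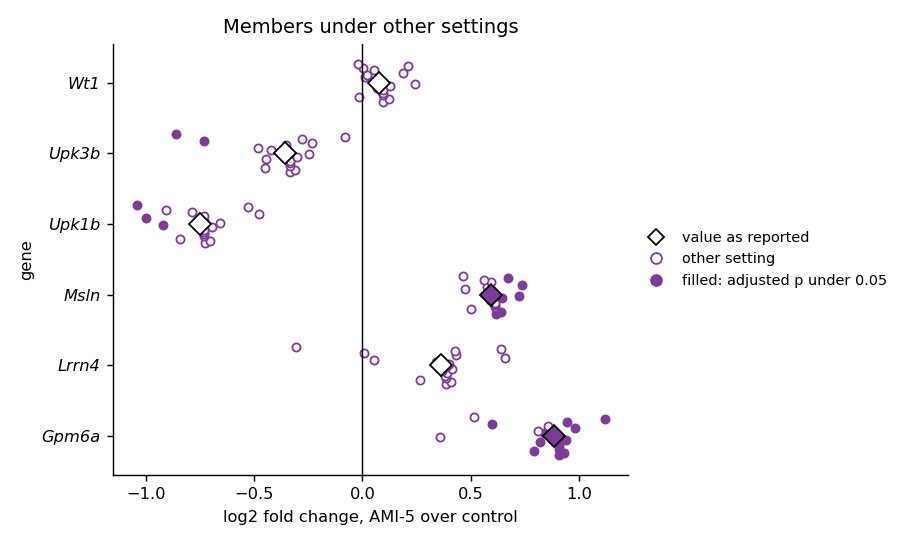
Log2 fold change, AMI-5 over control (x axis), of each member as reported (diamond) and under other scalings, filters, tests and subsets of libraries (circles); filled symbols have an adjusted p under 0.05. Msln and Gpm6a stay above 0 and Upk3b and Upk1b below 0 throughout, while Wt1 and Lrrn4 reach both sides of 0. Lrrn4 is below 0 only without replicate 1 of both groups, a subset chosen after seeing the data.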

How the data were processed

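The authors deposited 1 table of raw read counts per gene, 1 column for each of the 6 libraries, with gene length in bases. GSNAP 2018-05-30, featureCounts 1.6.2, bcl2fastq 2.19.1 and the build mm10 are named in the submitters' processing notes. The strand setting of the counting is not given in the sources used here. Columns were matched to samples by the marks in the sample titles.

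The 92 spike-in sequences were left out, leaving 49671 genes. Symbols, classes and GC content came from GENCODE M21 (a symbol for 49326 genes). The deposited counts were tested with edgeR 4.0.16 under R 4.3.3 (TMM scaling, filterByExpr, robust quasi-likelihood fit, group as the only term), and the step was tested on simulated data. The SE was taken from the fold change and its F statistic. Depth limits precision most in the controls, and for Upk1b and Msln in every library. Pairs of replicates differed beyond sampling noise (chi-square of 7.23 to 17.5 per degree of freedom), and each counted as 1 sample. Alternatives were other scalings, filters and tests (DESeq2 1.42.0, limma 3.58.1), trends in GC content and length removed, thinning, a replicate block, and each library left out. Less than 3% of the 50-base sequences of each member lie in another gene.

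Members and lists were chosen with earlier results of these data known. Named genes are the members; from the mesothelium and relatives lists, every called gene and the 2 most abundant uncalled; from other lists, up to 2 called with the smallest p and the most abundant; and the 3 nearest profiles of each member. A few of these genes are not reported here. Muc16, Wt1os, Calb2, Tbx18 and genes below 0.5 CPM are named outside that rule, after their values were seen.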

Additional observations from a re-analysis of the deposited data

How the results depend on the processing

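Over all genes tested the counts stayed within 1.5 times of 4820 higher and 4652 lower under every alternative, though scaling by library totals alone gave 3962 higher and 5883 lower. Of the 2 higher members, 1 remained higher with library totals alone, no filter, DESeq2, thinning, the replicate block and GC and length trends removed, 0 to 2 when a library was left out. Lower members numbered 1 with those trends removed and 0 to 1 when a library was left out. Msln missed the threshold with library totals alone (0.4995), no filter (0.6122), DESeq2 (0.6136), thinning (0.5868) and the block (0.5977), and ran from 0.4734 to 0.7345 with libraries left out. Removal of GC and length trends put Gpm6a at 0.3565, short of the threshold, and Upk1b at -0.9223, past it, with 3 lower genes on the further mesothelium list and Rspo1 at 0.1209, Gpm6b at -0.1898 and Lrrn2 at 0.045. With libraries left out, Gpm6a ran from 0.5965 to 1.12, Upk1b from -0.9981 to -0.4783 and Upk3b from -0.7302 to -0.08006, and the further list from 2 to 4 higher and 3 to 5 lower. Library totals alone gave Wt1 -0.01792 and Krt19 -0.06795. Without replicate 1 of both groups, a subset chosen after seeing the data, 0 members were higher and 2 lower, with Wt1 at -0.01864, Lrrn4 at -0.3083, Upk3b at -0.862, Upk1b at -1.043, Msln at 0.4641, Gpm6a at 0.5144, Muc16 at 0.02055 and Aldh1a2 at -0.09023.

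Cdh2, at -0.0026, was above 0 with RLE (0.01862), upper-quartile scaling (0.04338), no filter (0.01629), the stricter filter (0.01649), DESeq2 (0.01525), protein-coding genes only (0.04972) and thinning (0.002241). With libraries left out it ran from -0.1035 to 0.08443, Bnc1 from -0.251 to 0.1546, Pdpn from -0.2497 to 0.06652, Muc16 from -0.4844 to 0.06552, Rspo1 from -0.4509 to 0.1029 and Aldh1a2 from -0.04399 to 0.3084. The labels do not say that the replicate numbers pair samples. Deviations of same-numbered samples showed no shared pattern (correlations of -0.0579, -0.0377 and -0.048). Of the AMI-5 libraries, 0 of 3 matched best with their own number. With the numbers as a block, 4704 genes were higher and 4482 lower, Msln lost its call and no other member's call changed. On the further list 3 genes were lower under the block (Sulf1 and Crb2 lost their calls). Depth limits Upk1b and Msln most. The cause of these changes was not tested.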

Other observations

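Wt1 is also known from the gonad and kidney. Of 7 genes listed for gonad and kidney, 5 could be tested, and Six2 and Nr5a1 were below 0.5 CPM. With AMI-5 1 was higher and 1 lower, against 27.5% and 26.6% of all genes tested. Gata4, a transcription factor of mesothelium and mesenchyme among other tissues, was lower (log2 fold change -0.36, adjusted p = 0.00175 by edgeR), and lost its call once GC and length trends had been taken out (-0.16, adjusted p = 0.0949). On the urothelium list, Trp63, a factor of basal epithelial cells, was lower (-2.86, adjusted p = 2.33e-05), with 6, 10 and 21 reads with AMI-5 and 55, 61 and 42 reads in controls.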
